A study of Mus musculus with 4 samples.

Results

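The cytoplasmic ribosomal protein genes were examined in sorted cells from the dermis around mouse hair follicles at 2, 12 and 18 months of age. Members were taken by symbol alone: Rpl or Rps followed by a number, or Rplp0, Rplp1, Rplp2 and Rpsa, without pseudogene symbols ending in -ps and without the Rps6k kinases. This gave 87 of the 27999 genes in the files, 53 with a large-subunit symbol and 34 with a small-subunit symbol, on 19 chromosomes. All 87 matched the GENCODE M21 annotation (mouse build GRCm38) by gene ID. The symbol rule also takes in genes that are not plain ribosomal proteins, such as Rps19bp1, which encodes a protein that binds the small-subunit protein S19, and Rpl6l, which the annotation calls a processed pseudogene.

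A cytoplasmic ribosome is built from ribosomal RNA and one copy of most ribosomal proteins, so cells make these proteins in near equal amounts. Their messenger RNAs are short, abundant and long-lived, and in vertebrates they begin with a cytosine followed by a run of pyrimidines, the 5′ terminal oligopyrimidine (TOP) tract, through which mTORC1 and LARP1 set their translation. In skin, ribosome production and translation are known to differ between follicle stem cells and their progeny. In a few cases a ribosomal protein has a paralog made in some tissues only.

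All mice were C57BL/6J animals in which the α-smooth muscle actin promoter drove an inducible Cre (α-SMACreERT2) that switches on a reporter, and all had received 1 mg of 4-hydroxytamoxifen on postnatal days 3 and 4. The reporter therefore marks dermal sheath cells of back skin, their descendants and any other cell in which that promoter was active on those days. Dermal cells were sorted from 2 mice per sample into a reporter-positive and a Cd26-positive gate. Both gates required Itga9 or Cd200, and each gave 5000 cells to the mixture. Of the 4 libraries, those of α-SMACreERT2:RosaYFP mice (ages 2 and 18 months) used version 2 of the 10x 3′ chemistry, and those of α-SMACreERT2:RosaTDTomato mice (ages 2 and 12 months) used version 3. Ages were compared within a chemistry only, because chemistry, labelled reporter, software version and sex (Xist at 0 and 0.104 CPM in version 2, where CPM is UMIs per 1000000, at 831 and 849 in version 3) all changed together between the pairs and cannot be told apart. Within a pair there is 1 library per age, so those comparisons have no replicate and no test.

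Values are unique molecular identifier (UMI) counts, which count captured transcripts by their 3′ ends and were not scaled by gene length. Deposited totals ran from 17831300 to 77032628 UMIs per library. After filtering, 1677 cells (2 months) and 2431 cells (18 months) remained in version 2, and 5388 (2 months) and 3964 (12 months) in version 3, with median depths of 6260, 6588, 11934 and 11787 UMIs per cell. The file of the 2-month version 2 library held 1906 barcodes, while its label gives 2604 recovered cells; the design text gives 1906 cells for a sample whose age it does not name beside that number. If the files of the 2 version 2 libraries were exchanged, each direction at 18 months would turn; they were used as assigned in the deposit. The 2 version 3 libraries shared 84 barcodes and the 2 version 2 libraries 7. Cells were grouped by clustering without ribosomal protein genes and named from marker lists, with the ending -like. Keratinocyte-like and macrophage and dendritic-like cells lie outside the mesenchyme the sort aimed for.

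The start regions of 66 members were found in a RefSeq promoter table (GRCm38.p6), which lists 78 starts for them. A run of at least 8 pyrimidines beginning with C, on the gene's strand, lay between 30 bases before and 50 bases after the start in 53 of these 78 (67.9%), against 23.1% of all 32851 promoters in the table. The motif CCGGAAG, on either strand, a core that ETS factors such as GABP bind, was within the 300-base promoter in 34.6% of member starts and 8.86% of all promoters. RefSeq starts can lie some bases from the start a cell uses, so the runs are letters in a window, not mapped TOP tracts. The following 30-base stretches, each inside the searched window, are of the 7 members with a listed start among the 10 with the highest counts, 5′ to 3′ on the gene's strand, with the longest such run in capitals.

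Rpl41: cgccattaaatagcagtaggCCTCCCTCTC
Rpl37a: gcattgcgtCCCTTCCTCTTCggacttggg
Rpl13: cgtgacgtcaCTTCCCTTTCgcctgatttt
Rplp0: gaccgcctggttCTCCTataaaaggcacac
Rpl39: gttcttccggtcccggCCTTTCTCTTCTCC
Rps27: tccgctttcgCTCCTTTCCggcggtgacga
Rpl37: gcgggggtgCTTTCTCTTCCggtctctttg

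They lie at chr10:128549119-128549148 (minus strand), chr1:72711275-72711304, chr8:123102324-123102353, chr5:115559468-115559497, chrX:37085173-37085202 (minus), chr3:90213631-90213660 (minus) and chr15:5116632-5116661, in that order. The runs are 9 to 14 bases long except at the listed start of Rplp0, where the longest is 5. At the other end stand the members described below with the shortest runs in the window, Rps28 (chr17:33824563-33824592, minus) and Rps19bp1 (chr15:80264291-80264320, minus), both with 3 bases.

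Rps28: tCCCgaggattcctgggtaccgcgtgcggt
Rps19bp1: agggcggaagtagCTCgccgcgtgtgggcg

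A further set is shown because the 12-month results below turn on its members, Rpl15 (chr14:18270967-18270996, minus) and Rpl27 (chr11:101442220-101442249) upward at 12 months and Rpl35 (chr2:39005115-39005144, minus) downward.

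Rpl15: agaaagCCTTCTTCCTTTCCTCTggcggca
Rpl27: cggaaccggaacgCTCTgttcctgtctgct
Rpl35: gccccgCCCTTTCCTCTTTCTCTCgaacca

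Rpl15 and Rpl35, which moved in opposite directions, have the longer runs here (17 and 18 bases), and Rpl27 has one of 4. The window searched for Rpl27 ends just before the annotated gene start given below, so its own start region was not searched.

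Ribosomal protein genes gave 19.0% to 22.5% of all UMIs in these cells. Within version 2 the values were 22.5% (2 months) and 20.7% (18 months), and within version 3 they were 19.0% (2 months) and 19.4% (12 months). The exact binomial 95% interval of the first was 22.46% to 22.51%; such intervals cover counting error only, and the spread between mice is unknown. Of the 87 members, 74 averaged at least 1000 CPM over the 4 libraries. The first 10 members held 22.4%, 22.6%, 22.4% and 20.1% of ribosomal protein UMIs (version 2 at 2 and 18 months, version 3 at 2 and 12), so the counts were spread over many members rather than a few.

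Rpl41 (ENSMUSG00000093674, chr10:128548114-128549305), which encodes a very small, basic large-subunit protein, had the highest mean level, at 9311 CPM (2 months) and 8487 CPM (18 months) in version 2 and 6192 CPM (2 months) and 5487 CPM (12 months) in version 3. The small-subunit gene Rps29 (ENSMUSG00000034892, chr12:69157722-69159186) followed at 5737, 5624, 5661 and 3576 CPM, in the same order of libraries. It was thus lower in the 12-month library than in the other 3, which lay close together. Rpl37a stood at 5266, 5456, 4418 and 3938 CPM, lower in version 3 than in version 2. Others among the first 10 were Rpl13, Rplp1, Rplp0, Rpl39, Rps27 and Rpl37. Rplp0 (ENSMUSG00000067274, chr5:115559467-115563727) and Rplp1 encode proteins of the stalk, the part of the large subunit that recruits elongation factors; Rplp0 was at 4996, 3933, 3138 and 3611 CPM and Rplp1 at 3688, 3024, 4606 and 4598 CPM.

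**Figure D1:**
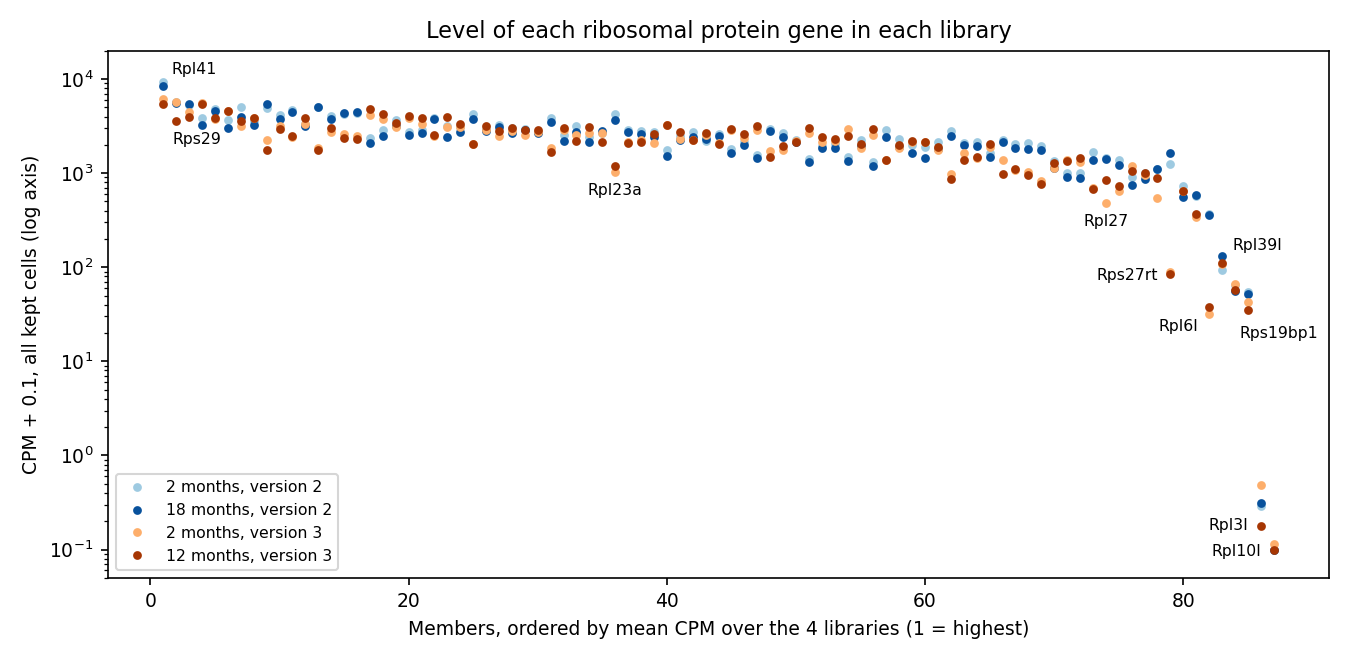
CPM (plus 0.1, log axis) of each of the 87 members over all kept cells, with members ordered by their mean over the 4 libraries and one point per library. Most members lie between 1000 and 10000 CPM, and the last 2, Rpl3l and Rpl10l, are near 0 in every library.

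At the low end, the muscle paralog Rpl3l had 3, 4, 27 and 4 UMIs in the 4 libraries, and Rpl10l, a paralog known from testis, had under 10 UMIs in each. Rps19bp1 was at 54.7, 52.5, 42.6 and 34.6 CPM and the Rpl7 paralog Rpl7l1 at 64.1, 55.9, 66.9 and 57.2 CPM. Ribosomal protein genes have many near-identical processed copies in the genome, and how reads that match several copies were counted is not given in the sources used here. Of the other listed paralogs, Rps3a1 was at 2904, 2698, 3338 and 3889 CPM, and Rps4l, Rps3a2 and Rps3a3 are not among the symbols matched. Levels of members with close copies (Rpl6l, Rps27rt, Rpl23a and others) are therefore uncertain.

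Cell classes differed in how much of their UMI content came from ribosomal protein genes. Keratinocyte-like cells had the highest share in all 4 libraries, 27.1% (2 months) and 30.1% (18 months) in version 2 and 25.6% (2 months) and 27.4% (12 months) in version 3. Dermal papilla-like cells, which sit at the base of the follicle and signal to its epithelium, were at 17.9%, 17.5%, 15.4% and 16.1%. Dermal sheath-like cells were at 23.7%, 20.4%, 19.7% and 19.4% and dermal fibroblast-like cells at 21.3%, 17.9%, 17.8% and 16.7%. The papilla was thus below the sheath and the fibroblasts in every library, and the fibroblasts below the sheath. Macrophage and dendritic-like cells ranged from 15.9% (2 months, version 3) to 24.5% (18 months). The contractile classes were lowest where they had 50 or more cells: pericyte-like cells at 13.6% and 14.4% in version 2 and arrector pili-like cells at 15.7% (2 months, version 2) and 12.8% (2 months, version 3). These class differences come from clusters of the same cells and are described, not tested.

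**Figure D2:**
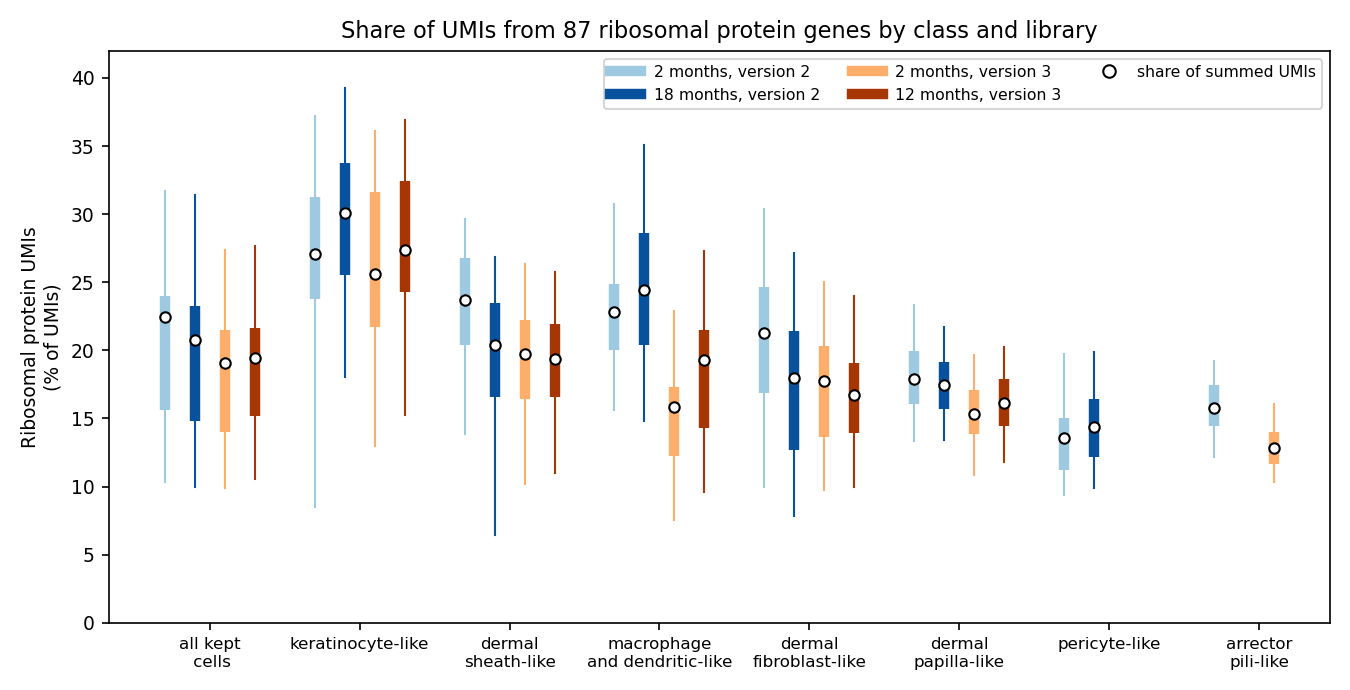
Percentage of UMIs from the 87 ribosomal protein genes by cell class and library, for classes with at least 50 cells in the library. Circles give the share of summed UMIs, thick bars the middle 50% of cells and thin lines the 5th to 95th percentile of cells; the keratinocyte-like circles, at 25.6% to 30.1%, are highest in each library.

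The share also moved with the depth of a cell. When each library was split into 3 equal bins by UMIs per cell, ribosomal protein genes made up 17.7%, 19.0% and 24.9% of UMIs from the shallowest to the deepest bin at 2 months in version 2, and 15.6%, 18.4% and 20.5% at 2 months in version 3. Within papilla-like cells this gradient was absent or went the other way, with 18.2%, 18.3% and 17.4% at 2 months in version 2 and 15.97%, 15.1% and 15.3% at 2 months in version 3. Keratinocyte-like cells were also the deepest of the 5 main classes, with a median of 25571 UMIs per cell at 2 months in version 2 against 5022 in papilla-like cells. Cycling cells were deeper still in version 3 (medians of 21334 and 23633 UMIs) at shares of 18.6% and 17.5%. The part of depth in the class differences was not tested.

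Members had a narrower range across classes than other genes. The 82 members with at least 50 UMIs in each of 5 classes and 4 libraries were set beside 1359 other genes so filtered. The ratio of the highest to the lowest class within a library had a median log2 of 0.79 in members. It was 1.15 in the other genes. Classes were made from other genes and not from members, which by itself favours a wider range in the others. Low counts also widen such ratios, and the 2 sets were not matched for level. Rplp0 had the widest range of these 82 members, at 1.76 log2 units (3.39-fold) averaged over the 4 libraries. It was highest in keratinocyte-like cells in every library (6284 to 8146 CPM over the 4 libraries) and stood at 1960 to 2525 CPM in papilla-like cells. Scaled to ribosomal protein UMIs, it took 2.45% to 2.86% of them in keratinocyte-like cells and 1.28% to 1.48% in papilla-like cells, ranges that do not overlap. The next widest members were Rpl36al, Rplp1, Rpl4, Rps12, Rps26, Rps2, Rpl10a, Rpl12 and Rpl5, by 2.14- to 2.50-fold, and all were highest in keratinocyte-like cells in all 4 libraries.

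Rps29 went its own way. It was highest in macrophage and dendritic-like cells (5996 to 10322 CPM) and lowest in papilla-like cells (2525 to 4688 CPM) in all 4 libraries, among the 5 classes compared. Pericyte-like cells, outside those 5, were lower still in version 2, at 3250 CPM (2 months) and 3659 CPM (18 months). Its fraction of ribosomal protein UMIs in macrophage and dendritic-like cells was 3.17% (2 months) and 3.53% (18 months) in version 2, and 6.50% (2 months) and 3.11% (12 months) in version 3, while in keratinocyte-like cells it was 1.56% to 2.53%. Arrector pili-like cells, also outside those 5, were at 3.43% in the 2-month version 2 library, above the 3.17%. In the 2-month version 3 library they were at 3.45%, and a fibroblast-like cluster marked by Igfbp6 and Clec3b was at 4.03%. The 6.50% was carried by the cluster of macrophage type (markers Pf4, C1qa, Mrc1), in which Rps29 made up 7.76% of ribosomal protein UMIs at 2 months and 4.20% at 12 months. In the cluster of dendritic type (Il1b, Cd74, Ccr7) the values were 3.61% and 2.42%.

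Rpl39l (ENSMUSG00000039209, chr16:10170226-10174911), a paralog of the X-linked exit-tunnel protein gene Rpl39 that is best known from male germ cells, was present in the mesenchymal classes and near 0 in keratinocyte-like cells. Too few UMIs there kept it out of the 82 members above. It was at 162, 181, 111 and 108 CPM in papilla-like cells, in the order 2 and 18 months (version 2), 2 and 12 months (version 3). Sheath-like cells had 247, 188, 141 and 151 CPM and fibroblast-like cells 189, 186, 111 and 131 CPM. In keratinocyte-like cells it was at 2.05, 4.03, 6.04 and 5.10 CPM, from 13, 10, 45 and 27 UMIs. A UMI of Rpl39l was seen in 50.3% to 59.3% of papilla-like cells and in 5.02% to 8.55% of keratinocyte-like cells, although the latter were deeper (medians of 12991 to 25571 UMIs against 5022 to 8276). Its partner Rpl39 was at 4187 to 4596 CPM in the keratinocyte-like cells of the 4 libraries and 2809 to 3184 CPM in the papilla, so the 2 genes had the opposite order in these classes.

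In the smaller classes, Rpl39l was at 175 CPM (2 months) and 154 CPM (12 months) in the cycling cells of version 3. This was above the 3 dermal classes of the same libraries, but not above each dermal cluster. At 12 months Rpl39l was higher still in a fibroblast-like cluster (165.5 CPM) and a sheath-like cluster (157 CPM). At 2 months it was at 163 CPM in the same fibroblast-like cluster. It reached 12.0 CPM in the endothelium-like cells of the 2-month version 3 library, 53.1 and 78.5 CPM in pericyte-like cells of version 2, and 122 and 147 CPM in arrector pili-like cells. Macrophage and dendritic-like cells had 83.9 and 50.1 CPM in version 2 but 15.04 and 12.6 CPM in version 3. In those cells the dermal fibroblast markers, which mesenchymal cells express, summed to 0.781% and 0.642% of UMIs in version 2 and 0.244% and 0.176% in version 3, so they were higher in the same libraries; their part in the Rpl39l level was not tested. In single cells, free RNA and doublets also give UMIs of genes a cell does not make, and the keratinocyte and version 3 myeloid values are at a level that cannot be told apart from such background.

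The other paralogs were less selective. Rpl22l1, which is known to act in place of Rpl22, had 32.3 to 93.0 UMIs per 100 of Rpl22 in macrophage and dendritic-like cells and 49.2 to 173 in fibroblast-like cells over the 4 libraries, with version 2 above version 3 in both. Rps27l, a p53 target and paralog of Rps27, was at 206 to 512 CPM in papilla-like cells and 463 to 751 CPM in macrophage and dendritic-like cells. Rpl36al had 24.0 to 33.2 UMIs per 100 of its X-linked source gene Rpl36a in papilla-like cells and 32.5 to 68.1 in keratinocyte-like cells.

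**Figure D3:**
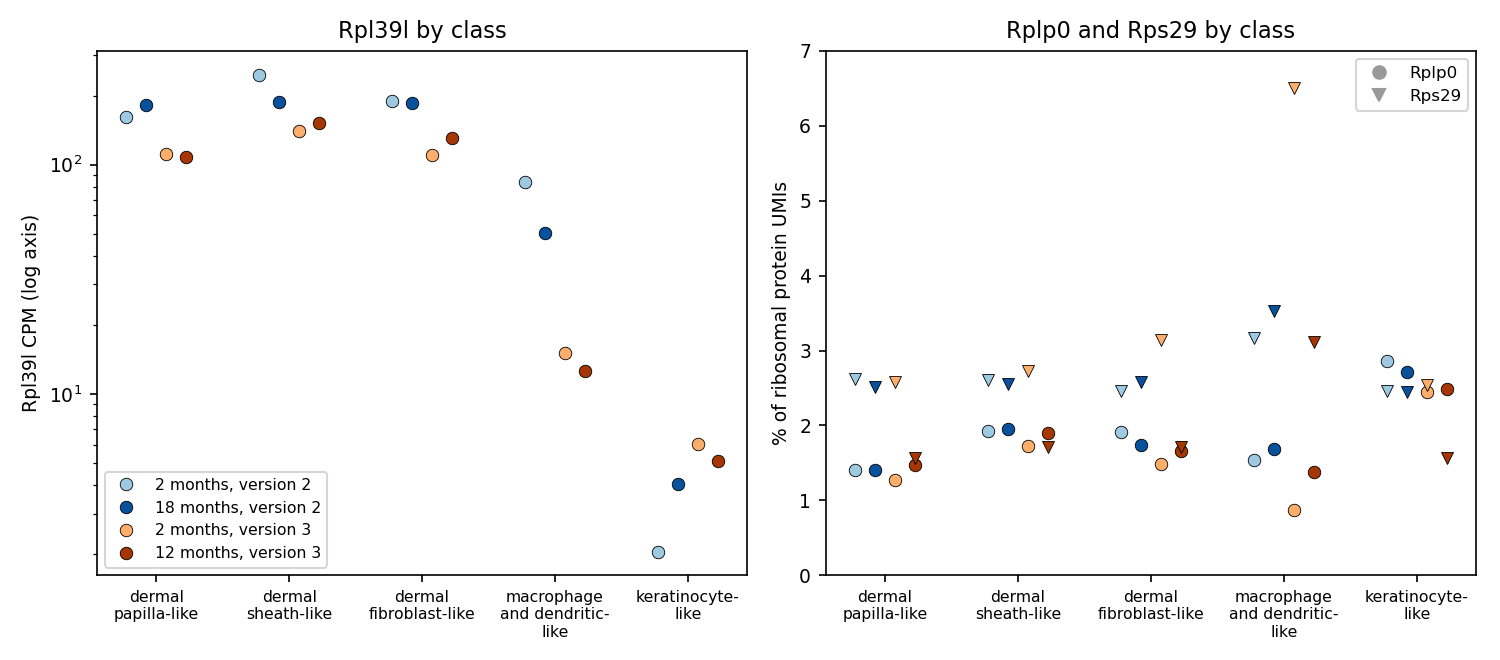
Left, CPM of Rpl39l (log axis) in 5 classes with one point per library; right, the percentage of ribosomal protein UMIs from Rplp0 (circles) and Rps29 (triangles), in the same colours. Rpl39l lies above 100 CPM in the 3 dermal classes and at 2.05 to 6.04 CPM in keratinocyte-like cells, and the triangle at 6.50% is the 2-month version 3 macrophage and dendritic-like sample.

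With age, the total share moved in different directions in the 2 pairs. Over all kept cells it was 1.75 percentage points lower at 18 than at 2 months (version 2) and 0.389 points higher at 12 than at 2 months (version 3). The first difference turned to 0.694 points higher when classes were weighted by their UMIs in the 2-month library. It turned to 0.532 points higher in cells of 4000 to 12000 UMIs. Weights by UMIs count the deep keratinocyte-like cells, 15.4% of kept cells at 2 months, more heavily than weights by cells would. The 0.694 therefore leans on the 3.00-point step of that class described below. Keratinocyte markers, whose class has the highest share, summed to 5.61% of UMIs at 2 months and 1.04% at 18 months in version 2. Keratinocyte-like cells were 259 of 1677 kept cells at 2 months and 147 of 2431 at 18 months; the part of this in the 1.75 points was not tested beyond the weighting above.

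Within classes, myeloid and epithelial cells were higher and fibroblasts lower at the older age in both pairs. Macrophage and dendritic-like cells went from 22.8% to 24.5% (2 to 18 months) and from 15.9% to 19.3% (2 to 12 months), by 1.65 and 3.42 points. Keratinocyte-like cells were higher by 3.00 and 1.75 points. In version 2 their median depth was 25571 UMIs at 2 months and 12991 at 18 months. At a finer clustering (Leiden resolution 1), a keratinocyte-like cluster held 217 cells at 2 months and 2 at 18 months, and another held 0 and 61. The part of this in the 3.00 points was not tested. Fibroblast-like cells were lower by 3.31 points at 18 months (21.3% against 17.9%) and by 1.03 points at 12 months (17.8% against 16.7%). The fibroblast cluster marked by Lum and Cyp2f2 held 26 cells at 2 months and 231 at 18 months in version 2. Its share at 18 months was 13.01%. The part of this cluster in the 3.31 points was not tested. Beside the 12-month value, the 28 macrophage and dendritic markers summed to 0.513% of fibroblast-like UMIs at 2 months (1 at 0) and 0.0364% at 12 months (0 at 0), against 0.0596% and 0.0698% in version 2. Without one small fibroblast cluster, an alternative added after the data were seen, they were at 0.02005% and 0.0345% in version 3, and the 12-month difference was -2.13 points. The sheath was lower by 3.26 and 0.363 points, and the papilla was 0.456 points lower at 18 months and 0.792 points higher at 12 months. A cluster that met no marker list and stayed unnamed held 932 cells, or 17.3%, of the 2-month version 3 library, at a share of 21.9%, and 14 cells of the 12-month one. Counted with the sheath, again an added alternative, it moved the 12-month sheath difference to -1.29 points. The 12-month values of sheath and fibroblasts turned positive in cells of 4000 to 12000 UMIs (0.592 and 0.314 points). Pericyte-like cells, measured in version 2 only, were 0.850 points higher at 18 months, and cycling cells, in version 3 only, 1.14 points lower at 12 months.

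Different clusters held most of some classes at different ages, so single clusters with at least 50 cells in both libraries of a pair were also compared, a choice made after the data had been seen. Of 6 such clusters at 18 months, 3 had a higher share than at 2 months, and of 9 at 12 months, 5 did. The dendritic-type cluster went from 23.3% to 25.8% at 18 months and from 20.6% to 21.8% at 12 months, and the macrophage-type cluster from 14.4% to 16.3% at 12 months. The smaller step at 12 months within each than over the class (1.21 and 1.89 against 3.42 points) went with more dendritic-type cells (113 at 2 months, 311 at 12 months). The fibroblast cluster marked by Mfap5 and Clec3b went from 23.0% to 20.7% and from 20.3% to 19.4%. The fibroblast cluster marked by Coch and Tnn, compared at 18 months only, went from 21.6% to 20.5%. For keratinocytes the clusters disagreed in version 3: the one marked by Krt1 and Krt10 was 3.33 points higher at 12 months and the basal one marked by Krt5 and Krt15 was 3.19 points lower. Sheath-like cells shared a cluster across ages only in version 3, where the share was 16.8% at 2 and 16.4% at 12 months.

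A share depends on the ribosomal protein UMIs and on the other UMIs of a cell. In macrophage and dendritic-like cells the median cell held 2279.5 ribosomal protein UMIs at 2 months and 1860 at 18 months, while its other UMIs went from 7390 to 5300. In version 3 it held 1117.5 and 1208 ribosomal protein UMIs at 2 and 12 months, and 6649 and 5717.5 others. Keratinocyte-like cells in version 2 held fewer ribosomal protein UMIs at 18 months (3892 against 7039) beside a larger drop in others (9247 against 18325). Fibroblast-like cells held fewer at the older age in both pairs, 1175 against 1276 at 18 months and 1843 against 2106.5 at 12 months. Their other UMIs were higher at 18 months (5908 against 4759) and lower at 12 months (9646 against 9958). Where counts per cell were lower, fewer transcripts per cell and less complete capture cannot be told apart.

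Member by member, most genes followed their class. Over all kept cells, 11 of 85 members with at least 50 UMIs over the pair were higher at 18 than at 2 months and 74 lower, with a median log2 ratio of -0.14, where 62% of 12900 genes were higher and the median gene was at 0.11. None passed 1.5-fold, against 15.8% of genes past it upward and 9.53% downward. At 12 months 51 of 85 were higher and 34 lower (median 0.04; 35% of 14723 genes higher, median gene -0.10), and 2 passed 1.5-fold upward and 1 downward, against 6.02% and 11.9% of genes. Scaling by TMM factors (trimmed means of log ratios) in place of total UMIs shifted all log2 ratios by -0.10 at 18 months and 0.10 at 12 months, and in macrophage and dendritic-like cells by 0.30 and 0.31.

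In fibroblast-like cells 81 of 85 members were lower at 18 months (median -0.25; 40.3% of genes were higher). At 12 months 56 of 85 were lower there (median -0.05; 44.5% of genes higher), and the median turned to 0.02 under TMM. In sheath-like cells 79 were lower at 18 months (median -0.21; 61% of genes higher) and 45 at 12 months (median -0.01; 44% of genes higher), turning to 0.04 under TMM. Papilla-like cells had 59 lower at 18 months (median -0.05; 51.7% of genes higher) and 52 higher at 12 months (median 0.07; 40.5% of genes higher). Macrophage and dendritic-like cells had 69 of 85 higher at 18 months (median 0.09; 30.8% of genes higher) and 71 at 12 months (median 0.37; 26.2% of genes higher). In the latter, 11 members passed 1.5-fold upward and 1 downward, where 6.6% and 26.3% of genes did, and at 18 months 0 and 2, where 6.89% and 22.6% did. Keratinocyte-like cells had 74 of 84 higher at 18 months (median 0.16; 70.5% of genes higher) and 66 of 85 at 12 months (median 0.12; 49.2% of genes higher). Elsewhere few members passed 1.5-fold. Upward and downward they were 0 and 0 in the papilla at 18 months (6.53% and 5.06% of genes) and 2 and 2 at 12 months (6.02% and 10.1%). In the sheath they were 2 and 0 at 18 months (16.3% and 5.23% of genes) and 2 and 1 at 12 months (4.2% and 5.32%). In fibroblasts they were 0 and 0 (9.14% and 11.9% of genes) and 2 and 2 (7.2% and 9.58%), and in keratinocytes 1 and 0 (35.2% and 8.28%) and 2 and 1 (7.56% and 8.87%), in the same order of ages. In no class did a member pass 1.5-fold the same way in both pairs. Few or none passed in at least 1 pair of each class, so this says little about the members. The share of all genes that passed in both pairs is not given here.

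At 18 months the members with the highest ratios over all kept cells were Rpl39l (log2 ratio 0.51), Rps27rt (0.39), Rps27 (0.16), Rpl34 (0.06) and Rps14 (0.06). The lowest were Rps2 (-0.41), Rpl36al (-0.40), Rps26 (-0.37), Rplp0 (-0.35) and Rplp1 (-0.29). These genes were highest in keratinocyte-like cells, which were fewer at 18 months. Within keratinocyte-like cells Rpl36al (-0.20), Rps2 (-0.18), Rplp1 (-0.16) and Rps26 (-0.08) were also lower, and Rplp0 (0.07) was higher. The part of the cell mix in their ratios was not tested. Rpl39l, near 0 in keratinocyte-like cells, went from 162 to 181 CPM in papilla-like and from 189 to 186 CPM in fibroblast-like cells. In sheath-like cells it went from 247 to 188 CPM, and in macrophage and dendritic-like cells from 83.9 to 50.1 CPM. The part of the cell mix in its ratio over all kept cells was not tested. Within papilla-like cells the highest were Rps27rt (0.35), Rpl15 (0.19), Rpl6l (0.17), Rpl39l (0.16) and Rps19 (0.16), and the lowest Rps20 (-0.25), Rps26 (-0.22), Rpl28 (-0.21), Rpl23a (-0.20) and Rps27l (-0.19). In the sheath the highest were Rpl7l1 (0.75, from 26 and 211 UMIs), Rps19bp1 (0.59, from 25 and 181 UMIs), Rpl6l (0.22), Rps27rt (0.16) and Rpl3 (0.10). The lowest there were Rps12 (-0.54), Rps26 (-0.45), Rpl22l1 (-0.44), Rpl38 (-0.41) and Rpl12 (-0.41). In fibroblasts Rps27l (0.19), Rps27rt (0.12), Rpl22l1 (0.07), Rps28 (0.02) and Rpl39l (-0.02) were highest, and Rpl7l1 (-0.52), Rpl9 (-0.52), Rps2 (-0.46), Rps16 (-0.46) and Rpl23a (-0.41) lowest. Rps27rt was thus among the 5 highest in all 3 dermal classes, with the copy problem described above. Rpl7l1 thus pointed in opposite directions in neighbouring classes at low counts.

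At 12 months a set of single members moved in every class, whatever the class as a whole did. Rpl27 (ENSMUSG00000063316, chr11:101442298-101445529), a large-subunit gene mutated in some cases of Diamond-Blackfan anaemia, was at 485 CPM at 2 months and 856 CPM at 12 months over all kept cells. This is a ratio of 1.76 (exact 95% counting interval 1.74 to 1.79). Its log2 ratio was 0.76 to 1.09 over 5 classes and above 0 in 9 of 9 clusters. Rpl15 (ENSMUSG00000012405, chr14:18267823-18271391), also a large-subunit gene, went from 543 to 897 CPM, with log2 ratios of 0.62 to 1.30 over the classes and again above 0 in 9 of 9 clusters.

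Rps29 moved the other way, from 5661 to 3576 CPM, a ratio of 0.632 (0.628 to 0.635). Its log2 ratio was -0.96 to -0.60 over the 5 classes and below 0 in 9 of 9 clusters (-0.82 to -0.49). The -0.96 is the fibroblast-like value, which was -0.80 without the cluster that carried the macrophage and dendritic markers. Rpl35, whose protein sits beside the peptide exit tunnel, went from 1393 to 978 CPM, with -0.65 to -0.28 over the classes. Rpl38 (-0.34 over all kept cells) was below 0 in each of the 5 classes, and Rps27 (-0.34) in 4 of them, the exception being macrophage and dendritic-like cells at 0.06. Of the 85 members, 26 were higher in all 5 classes at 12 months and 9 were lower in all, where 5.77% and 15.7% of 7827 genes were.

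The other members at the ends of the 12-month ratios were smaller steps. Over all kept cells Rps2 (0.36), Rps7 (0.30) and Rpl6l (0.27) followed Rpl27 (0.82) and Rpl15 (0.72), and Rps19bp1 (-0.30) joined Rps29 (-0.66), Rpl35 (-0.51), Rpl38 and Rps27 at the low end. In papilla-like cells Rpl15 (0.82), Rpl27 (0.80), Rps2 (0.46), Rpl9 (0.39) and Rps3a1 (0.38) were highest, and Rps29 (-0.65), Rps19bp1 (-0.65), Rpl35 (-0.53), Rpl7l1 (-0.31) and Rps27l (-0.29) lowest. In the sheath Rpl27 (0.76), Rpl15 (0.70), Rpl9 (0.38), Rpl6l (0.32) and Rps7 (0.25) stood against Rps29 (-0.70), Rpl35 (-0.58), Rpl38 (-0.51), Rps27 (-0.39) and Rps6 (-0.33). In fibroblasts Rpl27 (0.83), Rpl15 (0.62), Rps2 (0.35), Rpl6l (0.28) and Rpl39l (0.24) stood against Rps29 (-0.96), Rpl35 (-0.65), Rps27 (-0.52), Rps15 (-0.43) and Rpl38 (-0.43). Rpl27, Rpl15, Rps29 and Rpl35 were therefore at the ends in each of these classes.

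The version 2 pair did not show these steps over all kept cells. There Rps29 stood at 5737 and 5624 CPM, Rpl27 at 1452 and 1406 CPM, Rpl15 at 1100 and 1107 CPM and Rpl35 at 2237 and 2133 CPM at 2 and 18 months. As a fraction of ribosomal protein UMIs, Rpl15 was still higher at 18 months in 5 of 5 classes (log2 ratios of 0.03 to 0.28) and Rpl27 in 4 of 5 (-0.05 to 0.18), both by less than at 12 months (0.65 to 1.02 and 0.72 to 0.92). Rps29 was higher by this measure in 2 of 5 classes (-0.06 to 0.16). Of 84 members measured in all 5 classes, 1 was higher and 1 (Rps2) lower in all of them, where 4.4% and 2.69% of genes were. Taken as fractions of ribosomal protein UMIs, which removes the class-wide move, 36 members were higher in all 5 classes and 26 lower at 12 months, where 2.93% and 17% of genes scaled the same way were. At 18 months 9 members were higher and 7 lower, where 5.14% and 1.17% of genes were. The members' log2 ratios over all kept cells had an SD across members of 0.21 at 12 months and 0.12 at 18 months. The 12-month set therefore runs across unrelated cell types within 1 library against 1 other, and library and age cannot be told apart in it.

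**Figure D4:**
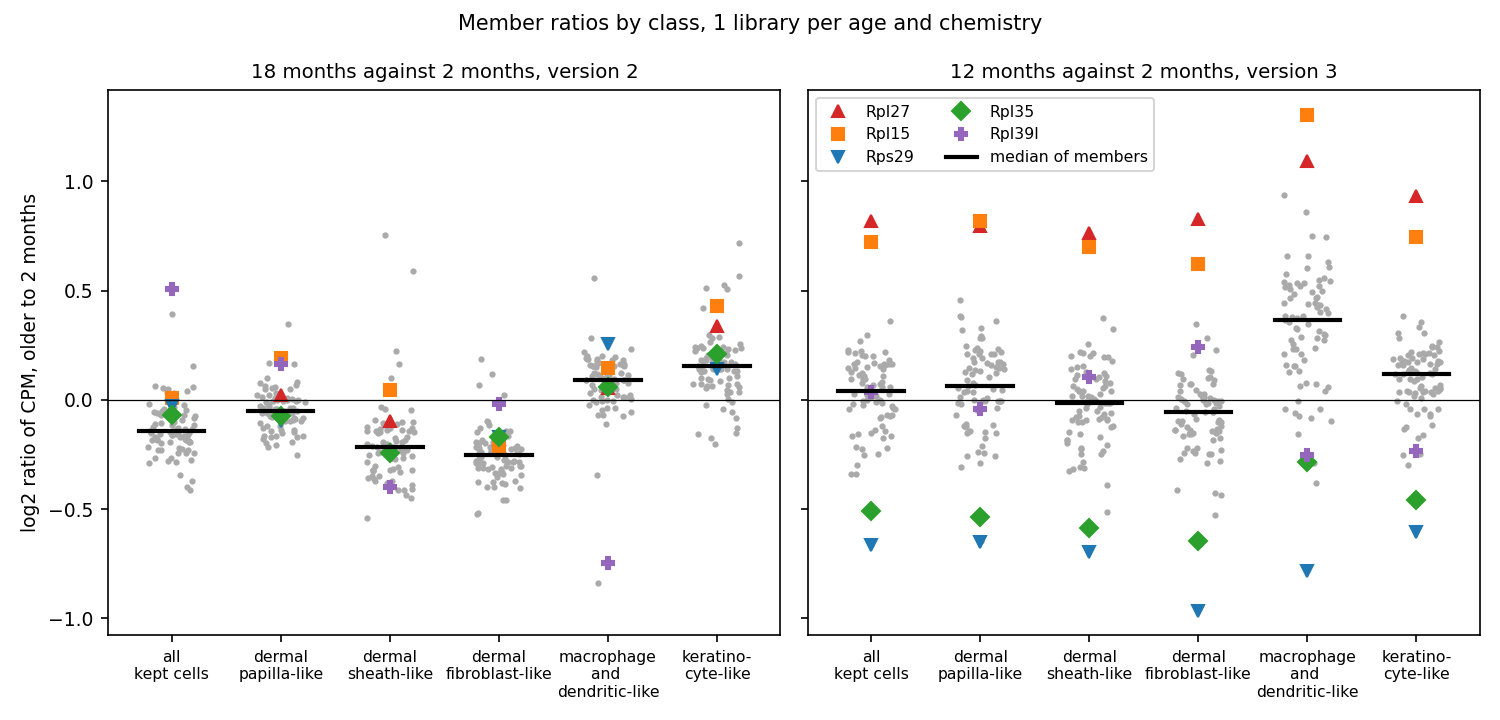
Log2 ratio of CPM, older to 2 months, of each member with at least 50 UMIs over the pair (grey points; 5 members marked) in all kept cells and 5 classes, for 18 months (left) and 12 months (right); bars are medians over members. On the right Rpl27 and Rpl15 lie above and Rps29 and Rpl35 below the other members in most classes, with Rps29 at -0.96 to -0.60 in the 5 classes, and on the left these 4 genes lie between -0.24 and 0.43 in the 5 classes.

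The contrast that the 4 libraries replicate, 2-month against older libraries with the chemistry fitted as a further term, called no member. By edgeR's quasi-likelihood test with Benjamini-Hochberg adjustment at 0.05, 0 of 85 members passed in all kept cells, papilla-like, sheath-like, fibroblast-like or macrophage and dendritic-like cells, where 0%, 2.25%, 0.634%, 0% and 1.59% of all genes did. Unadjusted edgeR p fell under 0.05 for 0, 2, 4, 0 and 24 of 85 members in that order. Of all genes tested, 1698 of 15458, 1195 of 11347, 1160 of 12305, 951 of 11635 and 1465 of 11586 did. DESeq2 also called 0 members in each class. With 1 residual degree of freedom, simulated 1.5-fold changes were recovered for 8% to 23% of genes and 3-fold changes for 96% to 100%, so shifts of the size seen in most members were below what this test finds. Nothing in the labels says that the libraries came from separate litters or days, so p-values speak for the spread between these libraries only.

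The fitted changes carried a direction in some classes. In macrophage and dendritic-like cells 81 of 85 members were above 0 with a median log2 fold of 0.47, where 5138 of 11586 genes were above 0 and their median was -0.06; scaled by library size alone the members' median was 0.22. The first members by p there were Rpl15 (log2 fold 0.98, SE 0.30, edgeR adjusted p 0.165) and Rplp0 (0.84, SE 0.27, edgeR adjusted p 0.199). In sheath-like cells 10 of 85 members were above 0 (median -0.14), against 6310 of 12305 genes. In fibroblast-like cells 13 were (median -0.10), against 5735 of 11635 genes. In papilla-like cells 57 were above 0 (median 0.05), against 5564 of 11347 genes, led by Rpl15 (0.53, SE 0.19, edgeR adjusted p 0.192).

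Subsets by role were also set side by side, without a test of their differences. At 18 months over all kept cells the median log2 ratio was -0.15 for 51 large-subunit and -0.12 for 34 small-subunit members, and at 12 months 0.04 and 0.05. The stalk genes Rplp0, Rplp1 and Rplp2 had a median of -0.29 at 18 months, with 3 of 3 lower, and of -0.0023 at 12 months, with 1 of 3 higher. Rpl5 and Rpl11, which join the 5S ribosomal RNA in a particle that can stabilise p53, had a median of -0.24 at 18 months and 0.00 at 12 months. The 20 members mutated in Diamond-Blackfan anaemia had medians of -0.12 and 0.05, close to all members.

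Related lists were set beside the members. Elongation factors and other mRNAs with TOP tracts (26 genes tested, such as Eef1a1, Eef2 and Tpt1) had a median log2 fold of 0.48 in macrophage and dendritic-like cells with 25 above 0 and none called by edgeR, near the members' 0.47. Ribosome biogenesis factors (44 tested, median 0.00) and the 76 mitochondrial ribosomal proteins tested (median -0.06), which are made for a separate ribosome, did not have such medians there, and none was called. Of 26 initiation factors 1 rose there, the cap-binding protein gene Eif4e (log2 fold 1.43, SE 0.24, edgeR adjusted p 0.0203). In papilla-like cells the TOP list had 22 of 26 above 0 and 1 that rose, the biogenesis list 1 of 43 that rose, and 0 of 24 genes of the mTORC1 list were called. Immediate early genes, which respond within minutes to stress and to tissue dissociation, rose in papilla-like cells (21 of 23) and sheath-like cells (11 of 24) and in 3 of 24 cases in macrophage and dendritic-like cells; their part in the ribosomal protein values was not tested.

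Between the library pairs, some members differed by far more than between ages. Of 85 members compared in the 2-month libraries, 14 were more than 2-fold lower in version 3 (8.57% of all genes with 50 UMIs over both) and 0 more than 2-fold higher (16.8% of genes), with a median log2 ratio of -0.27. Rps27rt (ENSMUSG00000050621, chr9:114982366-114982739), a retrogene copy of Rps27, went from 1251 CPM in version 2 to 88.1 CPM in version 3, or 14.2-fold lower. The 18-month and 12-month libraries gave 1644 and 85.5 CPM, so the split followed the library pairs, in which chemistry, reporter, software and sex cannot be told apart. The pseudogene Rpl6l went from 368 to 31.5 CPM (11.7-fold lower), Rpl23a from 4244 to 1031 CPM (4.12-fold lower) and Rpl27 from 1452 to 485 CPM (2.99-fold lower). Rps27 and Rps28, small-subunit genes with many genomic copies, were 2.18-fold and 2.68-fold lower. Rps21 (1475 and 2938 CPM) and Rpl30 (1311 and 2570 CPM) were the highest in version 3 relative to version 2, just under 2-fold. Rpl27, Rpl15 and Rps27, which moved at 12 months, are among the 14.

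**Figure D5:**
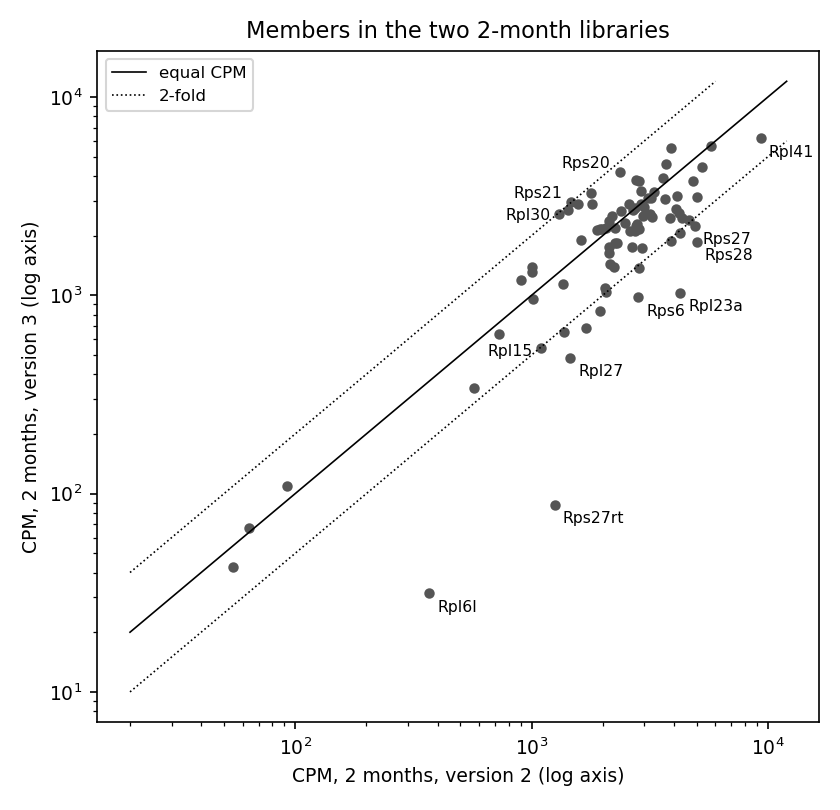
CPM of 85 members in the 2-month version 2 library (x axis) against the 2-month version 3 library (y axis), both log axes, over all kept cells, with lines of equal CPM and of 2-fold difference. Rps27rt and Rpl6l fall farthest below the line, 14.2-fold and 11.7-fold lower in version 3, and no member lies above the upper 2-fold line.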

How the data were processed

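The authors deposited raw UMI count matrices, 1 per library. Per the submitters' processing notes, STAR, Cell Ranger 2.0.1 and Seurat 2.1.0 were used, and mm10 and GRCm38.p5 are the builds. Software 3.0.1 is named in both version 3 matrix headers. The handling of reads that match several copies is not given in the sources used here. The members and gene lists were chosen with earlier results of these data known.

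Kept barcodes had 500 or more genes, 1000 or more UMIs and no more than 10% mitochondrial UMIs, and the 3% with the highest Scrublet doublet scores in each library were removed. Cells were clustered (scanpy 1.11.5, Python 3.11.15; 2000 variable genes without ribosomal protein genes, 30 components, 15 neighbours, Leiden resolution 0.5) and classes named from marker lists. UMIs were summed per class and library. Ratios used CPM with a prior count of 0.5 and at least 50 UMIs over the pair; intervals are exact at 95% and cover counting error only. Summed counts were tested with edgeR 4.0.16 (quasi-likelihood, TMM, chemistry as covariate, all 4 libraries; R 4.3.3), with DESeq2 1.42.0 as an alternative. The SE is the absolute log2 fold over the square root of F. The test was tried on simulated counts with known changes. Start regions were searched in a RefSeq promoter table of GRCm38.p6.

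Members named are the 10 highest by mean CPM, those called by edgeR, the 5 highest and 5 lowest ratios per pair over all kept cells and in papilla-, sheath- and fibroblast-like cells, the 10 widest over classes, and the paralogs. Others (Rps29 by class, and members in macrophage and dendritic-like cells) were picked after their values were seen. One member that the rule names is not reported here. Alternatives were other cell filters, a depth window, Leiden resolution 1, TMM scaling, low-count filters and leaving out each library.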

Additional observations from a re-analysis of the deposited data

Results flagged for a closer look

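Macrophage and dendritic-like and keratinocyte-like cells had a higher share of UMIs from ribosomal protein genes at the older age in both chemistries, while fibroblast-like and sheath-like cells had a lower one, so that classes stood on opposite sides of 0 under the same contrast. The steps in macrophage and dendritic-like cells were 1.65 percentage points at 18 months and 3.42 at 12 months, and in keratinocyte-like cells 3.00 and 1.75. In fibroblast-like cells they were -3.31 at 18 months and -1.03 at 12 months, and in sheath-like cells -3.26 and -0.363. Within the single fibroblast-like clusters compared at 18 months the steps were -1.15 and -2.25. A further fibroblast-like cluster held 26 cells at 2 months and 231 at 18 months, so the -3.31 compares different mixes of cells. In version 2 a finer keratinocyte-like cluster held 217 cells at 2 months and 2 at 18 months, so the 3.00 compares different mixes of cells. The 12-month values of fibroblasts and sheath turned to 0.314 and 0.592 in cells of 4000 to 12000 UMIs, that of the sheath to 1.60 at a finer clustering, and the basal keratinocyte cluster was 3.19 points lower at 12 months (a step of -3.19). The difference between the classes was not tested, since each value rests on 1 library per age.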

How the results depend on the processing

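Of 197 values under alternative settings, those that answer a comparison kept direction and size in 62 cases, moved in 13, turned in 2 and newly passed the threshold in 2. Those for single classes kept both in 62 cases, moved in 51 and turned in 5. The share over all kept cells at 18 months was lower by 1.75 points. It became -1.97 with a mitochondrial limit of 5% and -0.655 as a median over cells. It turned to 0.532 in cells of 4000 to 12000 UMIs and to 0.694 with classes weighted by their UMIs in the 2-month library. At 12 months it was 0.389 points. It became 6.65e-05 with the 5% limit, 0.370 with at least 1000 genes per cell and 1.42 in the depth window. It was 0.361 without mitochondrial UMIs, 0.802 as a median over cells and 0.573 with classes weighted by their 2-month UMIs. It was 0.230 without barcodes shared by 2 libraries, an alternative chosen after seeing the data. The 12-month sheath value turned to 0.592 in the depth window and 1.60 at Leiden resolution 1, and the fibroblast value to 0.314 in the depth window. The members' median log2 ratio over all kept cells was -0.14 (18 months) and 0.037 (12 months) with at least 1000 genes per cell, and -0.24 and 0.14 under TMM; at 12 months TMM turned the sheath median to 0.040 and the fibroblast median to 0.025. Calls by edgeR in sheath-like cells changed when a library was left out, but such a fit leaves 1 library in a group, so its counts are not given. With no filter on low counts, edgeR called 3 members higher in macrophage and dendritic-like cells. The share of all genes called in that fit is not given here, so the 3 cannot be set against it. These fits differed from the main one in the number of samples or of genes tested, and the cause of the changes in calls was not tested. No paired analysis was possible because the groups share fewer than 2 replicate numbers; the chemistry term of the edgeR fit is the only blocking used. Low counts limit the ratios of single members mainly where UMIs are few, as for Rpl7l1, Rps19bp1 and, in keratinocytes, Rpl39l. Shares also moved with the depth of a cell, and some turned in the depth window as given above. Each value rests on 1 library per age and chemistry.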
